A study of Mus musculus with 5 samples.

Results

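Ccnd3, Cdk6 and Myb, genes of thymocyte proliferation, were examined through the open chromatin and the HEB and TCF1 regions around them in double positive (DP) thymocytes. The members were all listed regions that touch a window of mm9 named for each gene: 160 kb of chromosome 17 (47600001 to 47760000) for Ccnd3, 260 kb of chromosome 5 (3300001 to 3560000) for Cdk6, and 170 kb of chromosome 10 (20750001 to 20920000) named for Myb and upstream. Where Myb lies in that window, and which of its regions are upstream of the gene, was not checked on mm9. Together the windows held 101 of the 56796 regions of the series. These were 83 of the 48320 DNaseI regions, 8 of the 4930 from HEB and 10 of the 3546 from TCF1. The windows were chosen from these same lists with their regions known, so counts and levels in them are descriptions and carry no test.

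The cells were DP thymocytes of C57/BL6 mice aged 4 to 6 weeks, with no genotype or treatment named. DNaseI, HEB and TCF1 each came from 1 sample, whose labels do not say how many mice were pooled, so no value carries a biological error. DNase I cuts accessible DNA in intact nuclei, and HEB and TCF1 were immunoprecipitated with their crosslinked DNA. H3K9me3 and H3K27ac samples were not analysed here. The labelled cell type was not checked against markers such as Cd4, Cd8a or Rag1, because genes were not placed on mm9 here.

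Ccnd3 encodes cyclin D3, which binds the kinases CDK4 and CDK6, and Cdk6 encodes the second of these kinases. The complex phosphorylates the retinoblastoma protein and lets a cell pass from G1 into S phase; cyclin D3 is known for the burst of division that follows pre-T cell receptor signalling, just before the DP stage. Myb encodes c-Myb, a DNA-binding activator that thymocytes need for their passage to the DP stage and for survival there. HEB (Tcf12) recognises E-box sequences as a dimer with other basic helix-loop-helix proteins, and TCF1 (Tcf7) binds DNA through an HMG box; thymocytes rely on them around the same steps.

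The promoters of the 3 genes are shown so that they can be searched for E-box sequences and for sequences bound by TCF factors. The RefSeq promoter table, of build GRCm38.p6, held all 3 symbols, with 2 starts for Ccnd3. The 250 bases before each start lie at chr17:47504801-47505050 (plus strand) and chr17:47593217-47593466 (plus) for Ccnd3, chr5:3343643-3343892 (plus) for Cdk6 and chr10:21160985-21161234 (minus) for Myb. These positions are of another build than the region lists, so no region was placed on a promoter, exon or intron. Each sequence runs 5′ to 3′ along its gene and ends at the base before the start; capitals mark a match to CANNTG (the E-box), CTTTGA or CTTTGT (cores bound by TCF factors) on either strand.
Ccnd3 start 1: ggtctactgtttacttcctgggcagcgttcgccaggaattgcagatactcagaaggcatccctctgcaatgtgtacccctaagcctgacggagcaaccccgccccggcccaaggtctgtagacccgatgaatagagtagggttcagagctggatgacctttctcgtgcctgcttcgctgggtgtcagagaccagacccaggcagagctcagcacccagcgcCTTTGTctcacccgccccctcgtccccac
Ccnd3 start 2: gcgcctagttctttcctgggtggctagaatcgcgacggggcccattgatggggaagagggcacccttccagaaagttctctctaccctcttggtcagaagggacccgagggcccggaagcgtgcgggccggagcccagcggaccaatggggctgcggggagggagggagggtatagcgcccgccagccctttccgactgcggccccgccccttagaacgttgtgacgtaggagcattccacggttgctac
Cdk6 start: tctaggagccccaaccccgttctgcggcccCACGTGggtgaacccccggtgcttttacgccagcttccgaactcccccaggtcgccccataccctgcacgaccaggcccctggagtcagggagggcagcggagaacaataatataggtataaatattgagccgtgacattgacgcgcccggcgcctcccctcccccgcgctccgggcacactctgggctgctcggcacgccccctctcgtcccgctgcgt
Myb start: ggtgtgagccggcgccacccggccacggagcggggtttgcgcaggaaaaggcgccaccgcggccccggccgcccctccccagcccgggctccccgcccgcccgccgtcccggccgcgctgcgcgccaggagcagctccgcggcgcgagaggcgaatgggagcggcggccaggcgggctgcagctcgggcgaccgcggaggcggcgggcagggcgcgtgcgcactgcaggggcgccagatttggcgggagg
Ccnd3 start 1 held a CTTTGT whose first base lies 29 bases before the start. Cdk6 held 1 E-box, CACGTG, whose first base lies 220 bases before the start. The promoter of Myb, with 81.2% G or C, and Ccnd3 start 2 held none of these letters in this window. Of all 32851 promoters cut to the same length, 66.2% held an E-box, 13.8% CTTTGA, 16.5% CTTTGT and 27.6% at least 1 of the TCF cores. Such matches are common and are a description of the sequence, not of binding.

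The windows differed in how much open chromatin and how many factor regions they held. Ccnd3 had 41 DNaseI regions, 3 HEB regions and 7 TCF1 regions. Myb had 33 DNaseI regions, 5 HEB regions and 3 TCF1 regions. Cdk6 had 9 DNaseI regions in the longest window and neither a HEB nor a TCF1 region. Per 100 kb this was 25.6 DNaseI regions at Ccnd3, 19.4 at Myb and 3.46 at Cdk6, against 1.88 over the span of all chromosomes. DNaseI regions covered 20.2% of the Ccnd3 window, 7.87% of the Myb window and 1.13% of the Cdk6 window, against 0.845% of the span. Median spacing between the midpoints of neighbouring DNaseI regions was 2.35 kb at Ccnd3, 3.25 kb at Myb and 17.2 kb at Cdk6, against 6.29 kb in the whole list.

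**Figure D1:**
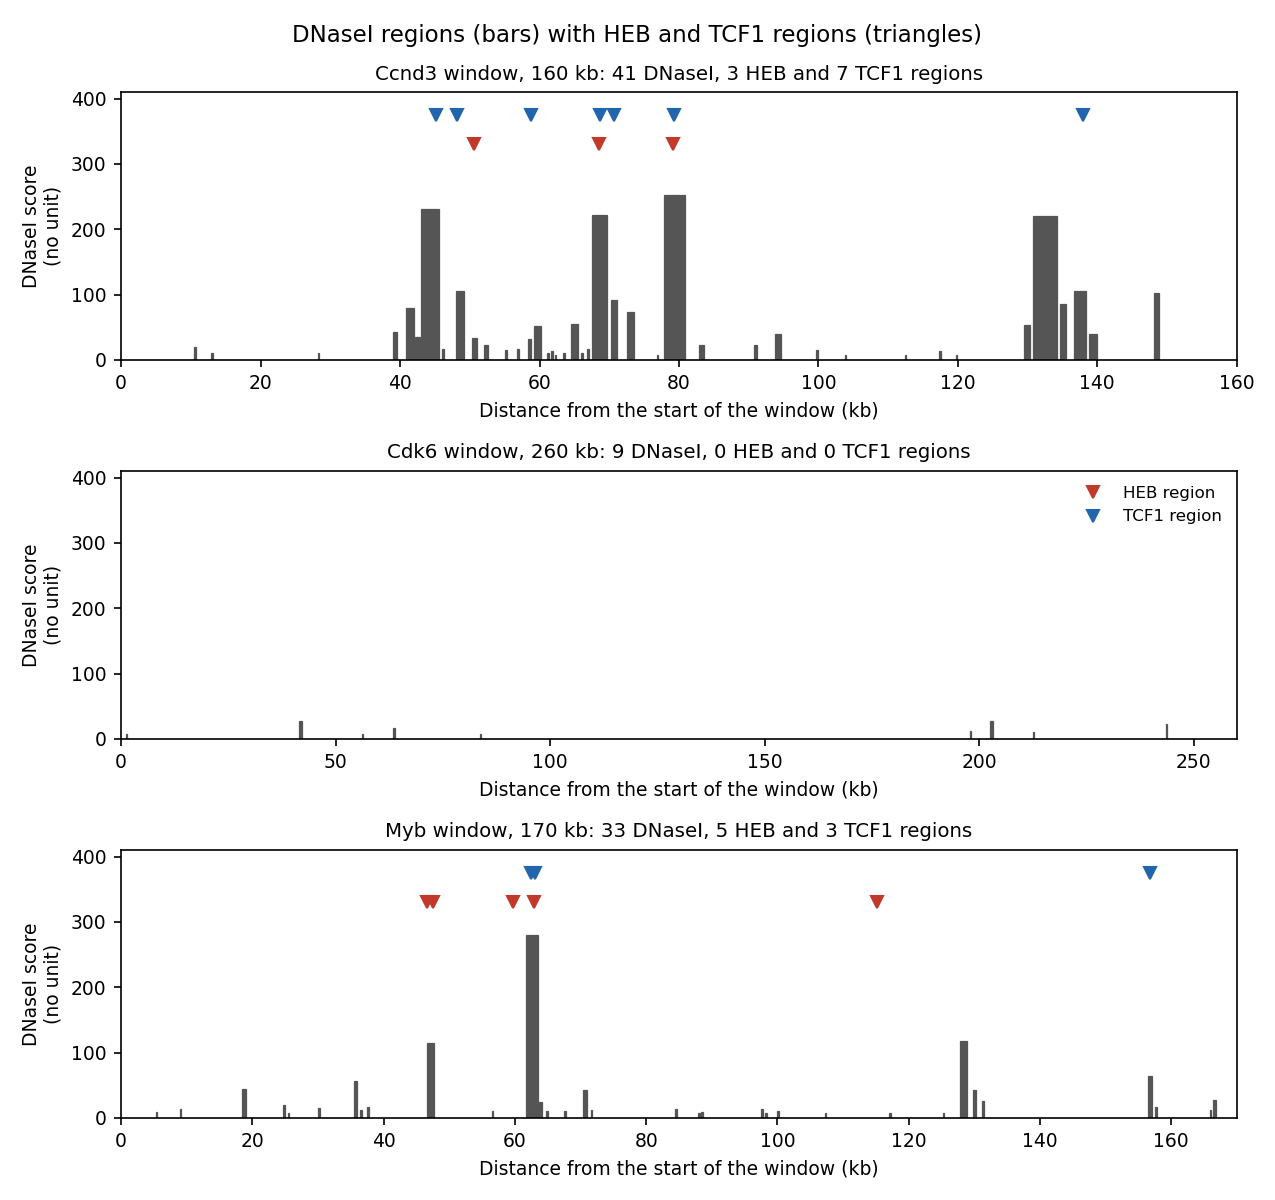
DNaseI regions of the 3 windows as bars (width to scale, height the DNaseI score, which has no unit) against the distance from the start of each window in kb, with HEB regions (red triangles) and TCF1 regions (blue triangles) above them. Ccnd3 shows a crowded stretch from 38.9 to 80.8 kb and a second group from 129 to 140 kb, Myb a single tall region at 61.7 kb, and Cdk6 only low bars with no triangle.

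Windows of the same length on a grid along the chromosomes give the place of each. Of 16068 windows of 160 kb, 0.131% held at least the 10 factor regions of Ccnd3, and 0.180% at least its 41 DNaseI regions. Of 15123 windows of 170 kb, 0.258% held at least the 8 factor regions of Myb, and 0.668% at least its 33 DNaseI regions. For Cdk6, 57.8% of 9887 windows of 260 kb likewise held no factor region, while 19.6% held at least 9 DNaseI regions. Nothing is read from the Ccnd3 and Myb ranks, since the windows were picked with these counts known.

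The flanks show where the windows end. Stretches of equal length on either side of Ccnd3 held 6 and 10 DNaseI regions and no factor region; the nearest factor regions beyond its edges were HEB regions 292 kb before and 439 kb after, and the nearest DNaseI regions lay 3.23 kb before (score 9) and 5.65 kb after (score 36). Around Myb, the flanks held 7 and 16 DNaseI regions, 1 and 2 HEB regions and 1 and 3 TCF1 regions. The Myb window thus ends inside a stretch with further regions: a DNaseI region of score 10 lay 0.715 kb past its end, and a TCF1 region with a score of 47 lay 35.1 kb past it. Around Cdk6, the flank before the window held no DNaseI region and 1 HEB region, 118 kb away, and the flank after it held 5 DNaseI regions and no factor region. A DNaseI region of score 64, above any inside the Cdk6 window, lay 35.8 kb past its end. In the gene order of GRCm38.p6, Taf8 and Bysl flank Ccnd3 and Ahi1 and Hbs1l flank Myb, and Fam133b follows Cdk6; which of these genes the windows reach was not determined.

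Scores deposited by the authors have no stated unit and were read only within their own list. DNaseI scores at Ccnd3 ran from 8 to 253 with a median of 22 (quartiles 14 and 73), at Myb from 8 to 280 with a median of 14 (10 and 27), and at Cdk6 from 8 to 27 with a median of 12 (8 and 23). The whole list had a median of 16 (10 and 33). Above that median lay 26 of 41 Ccnd3 regions (63.4%, 95% Wilson interval 48.1 to 76.4%), 13 of 33 Myb regions (39.4%, 24.7 to 56.3%) and 3 of 9 Cdk6 regions (33.3%, 12.1 to 64.6%), against 48.5% of all DNaseI regions. All 3 intervals, which cover counting error only, include the whole-list share. Scores at or above those of 90% of the list were found for 11 Ccnd3 regions (26.8%, 15.7 to 41.9%), 4 Myb regions (12.1%, 4.82 to 27.3%) and none at Cdk6, against 9.77% of all. The Ccnd3 interval lies above that share, and the Myb and Cdk6 intervals include it. Since the windows were picked with their regions known, these intervals are descriptions and no excess is read from them.

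Width went with score. Median widths were 530 bp at Ccnd3, 262 bp at Myb and 252 bp at Cdk6, against 315 bp overall. Narrow regions of exactly 201 bp made up 6 of 41 at Ccnd3, 9 of 33 at Myb and 4 of 9 at Cdk6 (26.4% of the whole list). To set score against width, each region was ranked among all DNaseI regions whose width lay within 10% of its own. By that measure 17 of the 41 Ccnd3 regions, 15 of the 33 Myb regions and 2 of the 9 Cdk6 regions outscored over 50% of their peers, with medians of 40.9%, 49.4% and 15.0% of peers outscored. Ties counted as not outscored, so 50% is not the share to expect. At 201 bp, for example, a score of 8 outscored 0% of peers and a score of 9 outscored 49.4%. The same share over the whole list was not computed, so these counts cannot be read as high or low for any window. Some Ccnd3 regions scored high for their width, such as the region of 710 bp with a score of 103, above 98.8% of peers. Whether width accounts for the raw scores at Ccnd3 was not tested.

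**Figure D2:**
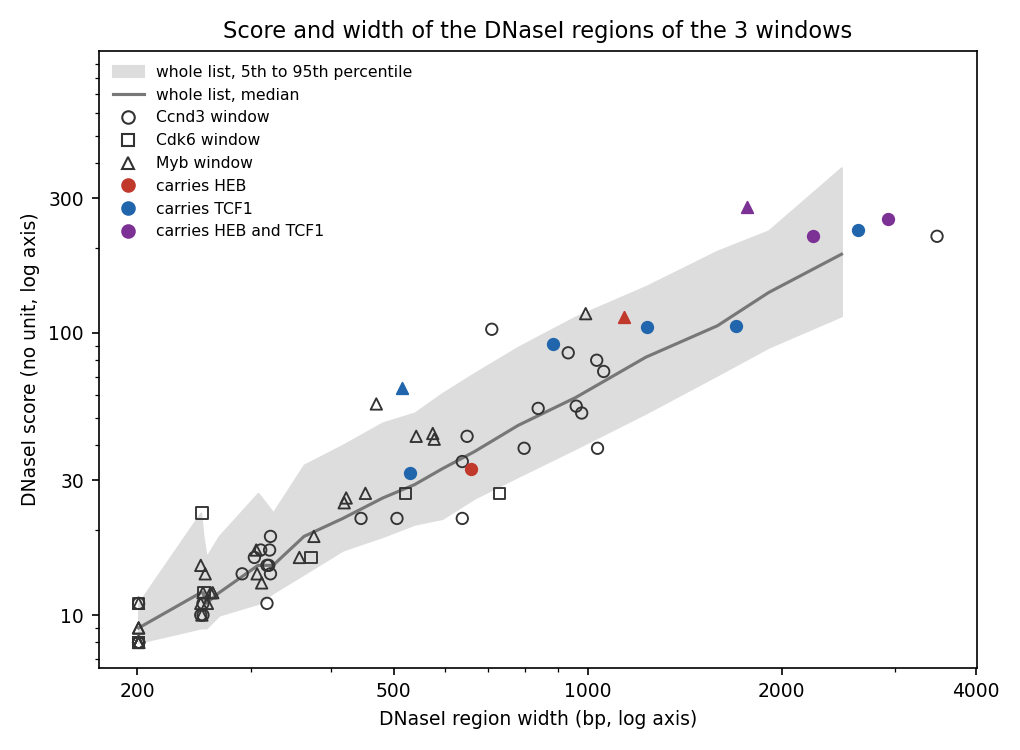
DNaseI score (no unit) against DNaseI region width in bp, both on log axes, for the 83 regions of the 3 windows; symbols give the window, filled colours the factor regions carried, and the grey line and band the median and the 5th to 95th percentile of the whole list. Most regions follow the grey line; the Myb region of 1765 bp with a score of 280 and the Ccnd3 region of 710 bp with a score of 103 are among those above the band.

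At Ccnd3 the factor regions were packed together. All 3 HEB regions and 6 of the 7 TCF1 regions lay within 34.3 kb (47645031 to 47679314), a stretch that is 21.4% of the window and touched 21 of its 41 DNaseI regions. All 3 HEB regions (Wilson interval 43.9 to 100%) and all 7 TCF1 regions (64.6 to 100%) lay in a DNaseI region, against 34.5% of all HEB and 84.9% of all TCF1 regions. From the DNaseI side, 8 of 41 regions carried a factor: 7 carried TCF1 (17.1%, Wilson interval 8.53 to 31.3%, against 6.10% of all DNaseI regions), 3 carried HEB (7.32%, 2.52 to 19.4%, against 3.43%) and 2 carried both (4.88%, 1.35 to 16.1%, against 1.28%).

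The 2 Ccnd3 regions with both factors were among its 3 strongest DNaseI regions. The strongest ran from 47677896 to 47680822 (2927 bp, score 253, rank 73 of 48320). It outscored 73.1% of the 52 DNaseI regions of like width. Its HEB region (47679076 to 47679276, score 34, rank 136 of 4930 in the HEB list) and its TCF1 region (47679132 to 47679314, score 11, the TCF1 median) had midpoints 47 bp apart. The other ran from 47667485 to 47669723 (2239 bp, score 221, rank 115) and outscored 84.3% of the 166 DNaseI regions of like width. There the HEB region (47668420 to 47668620, score 29, rank 228) and the TCF1 region (47668516 to 47668698, score 19, rank 336 of 3546) had midpoints 87 bp apart, and the TCF1 midpoint fell 3 bp from the centre of the DNaseI region. The HEB regions outscored 97.1% and 94.8% of their list, in that order, and the TCF1 regions 44.9% and 89.0% of theirs.

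The Ccnd3 regions with TCF1 alone spanned weak and strong ones. The second strongest DNaseI region of the window (47643016 to 47645645, 2630 bp, score 231, rank 96) carried a TCF1 region at 47645031 to 47645213 with a score of 17. Its midpoint lay 791.5 bp from the DNaseI centre, the farthest of any factor region in the 3 windows. That DNaseI region outscored 74.7% of the 95 of like width. A DNaseI region of 1235 bp and score 105 (47647969 to 47649203) carried TCF1 at 47648058 to 47648240 with a score of 9, and one of 530 bp and score 32 (47658280 to 47658809) carried TCF1 at 47658644 to 47658826, also with a score of 9. These 2 TCF1 regions were weak, above only 12.5% of their list. A DNaseI region of 883 bp and score 91 (47670274 to 47671156), directly after the pair of factors at 47668420, carried TCF1 at 47670643 to 47670825 with a score of 11. The last TCF1 region of the window, at 47737922 to 47738104 with a score of 11, stood apart, 58.8 kb from the nearest HEB region, in a DNaseI region of 1698 bp and score 106 (47736709 to 47738406). HEB alone was found once, at 47650575 to 47650775 with a score of 11, in a DNaseI region of 660 bp and score 33 (47650306 to 47650965); the nearest TCF1 region was 2.53 kb away.

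DNaseI regions at Ccnd3 formed runs in which each gap was 2 kb or less, a limit chosen after the values were seen. The longest run had 14 regions over 18.5 kb (47655028 to 47673542), 48.0% of it open, with 1 HEB and 3 TCF1 regions; 17 of the 31896 runs of the whole list, single regions included, had at least as many regions. Before it lay a run of 8 regions over 13.6 kb (47638930 to 47652561) with 1 HEB and 2 TCF1 regions. After it, a run of 5 regions over 10.4 kb (47729475 to 47739912) was 76.5% open and carried 1 TCF1 region and no HEB region. That last run held the widest DNaseI region of the 3 windows, 3485 bp from 47730748 to 47734232, whose score of 220 ranked 117 of 48320 and which carried neither factor; it is named after its values were seen. Among the 28 DNaseI regions of like width it outscored 21.4%. The longest stretch of the Ccnd3 window with no DNaseI region was 15.1 kb (47613119 to 47628183).

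At Myb, 1 DNaseI region held 3 of the 8 factor regions. It ran from 20811712 to 20813476 (1765 bp) and its score of 280, the highest in the 3 windows, ranked 53 of 48320; it outscored 98.4% of the 382 DNaseI regions of like width. It carried a HEB region at 20812792 to 20812992 with a score of 46 (rank 39 of 4930). It also carried TCF1 regions at 20812425 to 20812607 and 20812903 to 20813085, each with a score of 25 (rank 134 of 3546). These were the highest HEB and TCF1 scores of the 3 windows. The HEB midpoint lay 102 bp from the nearer TCF1 midpoint, with the regions overlapping, and 376 bp from the other, which it did not touch; the TCF1 midpoints were 478 bp apart. At least 2 TCF1 regions with at least 1 HEB region were found in 35 of all 48320 DNaseI regions, or 0.0724%. All 35 are among the 619 DNaseI regions that carried both factors.

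**Figure D3:**
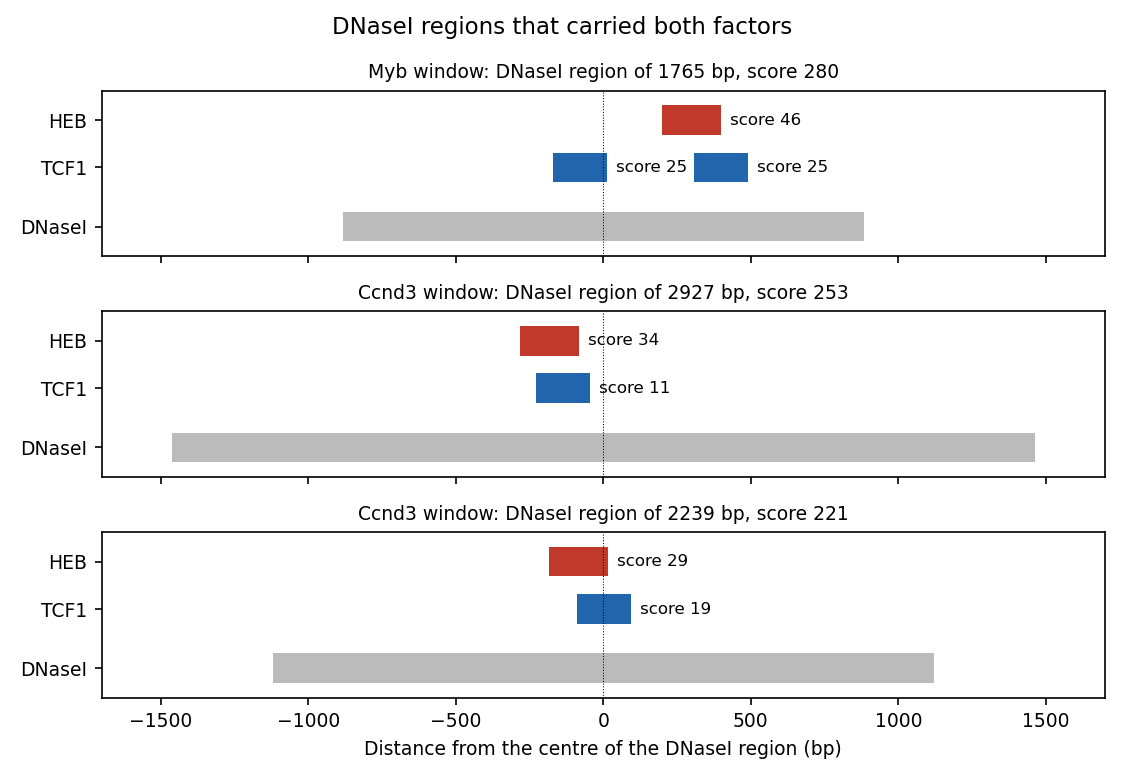
The 3 DNaseI regions that carried both factors (grey) with their HEB (red) and TCF1 (blue) regions to scale, against the distance in bp from the centre of the DNaseI region; numbers are each factor region's score in its own list. HEB and TCF1 overlap in all 3, and the Myb region holds a further TCF1 region at its centre.

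The other Myb factor regions were scattered and mostly weak. A DNaseI region of 1140 bp and score 114 (20796602 to 20797741) carried HEB regions at 20796578 to 20796778 (score 10) and 20797411 to 20797611 (score 11); the first reached past its edge, with 177 of its 201 bp inside. More than 1 HEB region in a DNaseI region was found in 43 of 48320, or 0.0890%. All 43 are among the 1658 DNaseI regions that carried HEB. A DNaseI region of 515 bp and score 64 (20906526 to 20907040), which outscored 98.1% of those of like width, carried TCF1 at 20906642 to 20906824 with a score of 11. HEB regions at 20809636 to 20809836 (score 13) and 20865102 to 20865302 (score 10) lay outside DNaseI regions, with gaps of 1.88 and 1.78 kb to the nearest one. The first of them was close to the strongest DNaseI region of the window, and the second was next to a DNaseI region with the lowest score in the list, 8.

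In counts, 3 of 5 Myb HEB regions lay in DNaseI regions (60.0%, Wilson interval 23.1 to 88.2%, against 34.5% of all), and so did all 3 TCF1 regions (43.9 to 100%, against 84.9% of all). Both intervals include the whole-list share. DNaseI regions with TCF1 numbered 2 of 33 (6.06%, 1.68 to 19.6%) and those with HEB also 2 of 33, against 6.10% and 3.43% of the whole list; 1 carried both (3.03%, 0.537 to 15.3%, against 1.28%). These intervals include the whole-list shares. The Myb window was dense in open regions. Its intervals cover counting error only, in a window picked with its regions known, so no difference from or likeness to the background is concluded.

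One strong Myb DNaseI region had no factor. The region from 20877857 to 20878849 (993 bp, score 117, rank 946) was the second strongest of the window, carried neither factor, and was the first of a run of 3 regions over 3.69 kb (20877857 to 20881551). The other 29 Myb regions without a factor scored below 64, the lowest score among the 3 with one. At Ccnd3 this separation was not seen: 12 of 33 regions without a factor scored at or above 32, the lowest score among the 8 with one. All 11 DNaseI regions with a factor at Ccnd3 and Myb were 515 bp or wider, and 13 Ccnd3 regions without one were at least as wide as the narrowest with one there (530 bp). Over the whole list, DNaseI regions with a factor likewise had a median score of 52 and width of 725 bp, against 15 and 306 bp for those with neither, so the pattern is not particular to these windows. The longest stretch of the Myb window with no DNaseI region was 25.0 kb (20881552 to 20906525), just before the region of score 64 with TCF1.

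**Figure D4:**
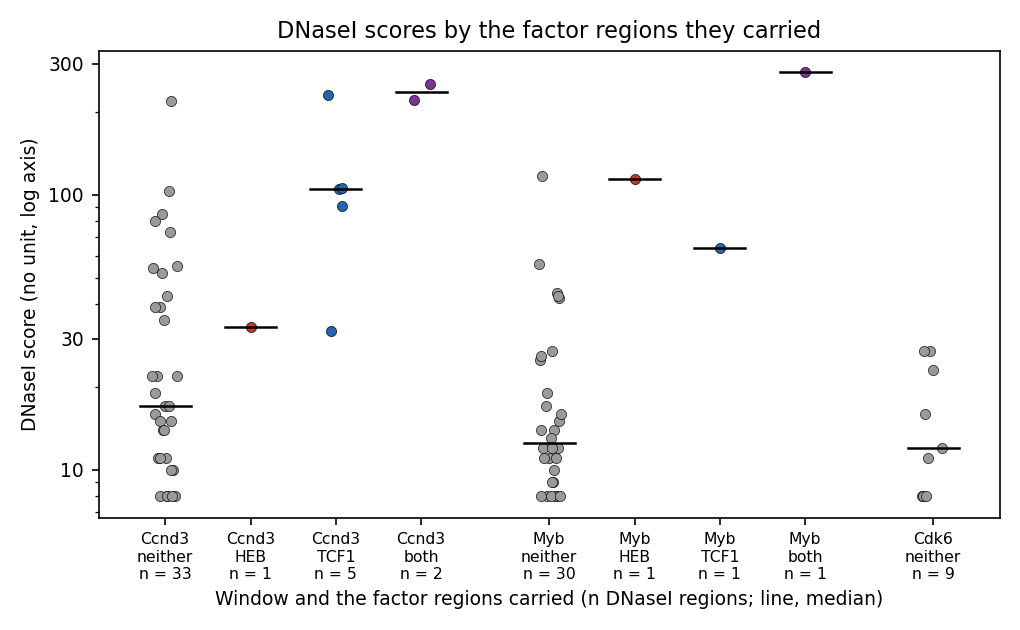
DNaseI scores (no unit, log axis) of every region of the 3 windows, grouped by window and by the factor regions carried; each point is a DNaseI region and each line a median. Regions with both factors sit at 221 and above, while those with neither have medians of 17 at Ccnd3, 12.5 at Myb and 12 at Cdk6 and reach 220, 117 and 27; over the whole list the medians are 91 with both factors and 15 with neither.

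Cdk6, the kinase partner of cyclin D3, was the sparse one. Its strongest DNaseI regions both scored 27: one of 522 bp from 3341555 to 3342076 and one of 730 bp from 3502566 to 3503295. Scores of 27 outscored 68.0% of the list, but among regions of like width the first outscored 40.3% and the second 2.45%. A region of 252 bp from 3543549 to 3543800 scored 23, which was high for its width, above 97.6% of peers. A region of 372 bp (3363457 to 3363828) scored 16, one of 254 bp (3497829 to 3498082) scored 12, and one of 201 bp (3512611 to 3512811) scored 11. The remaining 3 (3301097 to 3301297, 3356167 to 3356367 and 3383550 to 3383750) were 201 bp wide with the list's lowest score, 8. Between the last of these and the next region lay 114 kb with no DNaseI region (3383751 to 3497828), the longest such stretch of the 3 windows. None of the 9 DNaseI regions carried HEB or TCF1. The Wilson interval reached 29.9% for the share with TCF1 and likewise for the share with HEB. Both intervals include the whole-list shares of 6.10% (TCF1) and 3.43% (HEB), so 9 regions are too few to tell the Cdk6 shares apart from them.

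Over the 3 windows, HEB and TCF1 met each other in 3 places, which is 3 of 8 HEB regions (37.5%, Wilson interval 13.7 to 69.4%, against 11.7% of all HEB regions) and 3 of 10 TCF1 regions (30.0%, 10.8 to 60.3%, against 16.3% of all TCF1 regions). HEB regions that met TCF1 scored 29, 34 and 46; the other 5 scored 10 to 13, so these groups did not overlap. Over the whole list the medians were 16 (quartiles 12 and 25) for the 578 HEB regions that met TCF1 and 11 (10 and 13) for the other 4352, so higher scores at meeting places were the general pattern, with overlap between the groups. TCF1 regions that met HEB scored 11, 19 and 25, within the 9 to 25 of the other 7. Midpoint distances at the meeting places were 47, 87 and 102 bp, against a median of 43 bp (quartiles 18 and 81) over all 578 meeting HEB regions, so at Ccnd3 and Myb the factors sat no closer than that median. Factor regions inside DNaseI regions had midpoints a median of 240.5 bp (HEB, 6 regions) and 163.25 bp (TCF1, 10 regions) from the DNaseI centre, against 128 and 119 bp in the whole lists. As a share of the distance from centre to edge the medians were 23.1% and 32.4%, against 33.7% and 34.0%. Whether the longer distances went with wider DNaseI regions was not tested.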

How the data were processed

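Open chromatin, HEB and TCF1 were profiled in DP thymocytes, 1 sample each. The labels' protocols give SOLiD sequencing for all 3. The lists deposited by the authors give mm9 positions and a whole-number score per region, whose unit is not stated. The submitters' processing notes name HOMER 6.1 and mm9 with no role; the aligner, caller, thresholds, controls and depth are among what is not given in the sources used here. A region missing from a list is therefore not shown to be closed or unbound. Each HEB region was 201 bp wide and each TCF1 region 183 bp.

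Starts were converted to count from 1. Overlap meant at least 1 bp, within whole lists. Shares carry 95% Wilson intervals. Overlap counting was tested on simulated lists against a direct count. Windows on the grid were counted by midpoints between the first and last region of each chromosome; unmappable sequence was not masked. The windows, members and measures were chosen with earlier results of these data known; the comparison by like width and the runs were added after the values were seen. Regions named are every factor region, every DNaseI region with one, the 3 strongest DNaseI regions of each window, and the longest empty stretch; the other Cdk6 regions and the Ccnd3 regions with scores of 220 and 103 were added after their values were seen. Genes of the cell cycle elsewhere were not counted, since genes were not placed on mm9. No test was run. Python 3.11.15, numpy 2.4.6, pandas 2.3.3, scipy 1.17.1 and matplotlib 3.10.9 were used.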

Additional observations from a re-analysis of the deposited data

How the results depend on the processing

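When only scores above their own list's median counted, the 3 windows held 42 DNaseI regions, 4 HEB regions and 4 TCF1 regions in place of 83, 8 and 10. DNaseI regions with HEB then numbered 3 in place of 5, those with TCF1 3 in place of 9, HEB regions in DNaseI regions 3 in place of 6 and TCF1 regions in DNaseI regions 4 in place of 10. The filter shortens every list, so lower counts follow from it. The TCF1 share of DNaseI regions fell from 10.8% (6.10% in the whole list) to 7.14% (4.68%). The HEB share of DNaseI regions rose from 6.02% (3.43% in the whole list) to 7.14% (4.48%). The share of HEB regions in DNaseI regions stayed at 75.0%, while that of the whole list went from 34.5% to 52.4%. For TCF1 regions it stayed at 100%, with 84.9% and then 79.7% in the whole list. Of the 7 TCF1 regions at Ccnd3, 5 scored at or under the TCF1 median of 11, as do at least 50% of all TCF1 regions. A score of 11 ranked 1402 of 3546, so no difference from the whole list is read from this count. Counts with a gap of up to 500 bp, with at least 50% of the shorter region overlapping, with regions wholly inside the window, and the shares of grid windows with the grid moved, stayed within 1.5 times of those reported or within their Wilson interval. Requiring 50% overlap lowered the HEB regions that met TCF1 from 3 to 2. No assay had a replicate, so none could be left out. No paired analysis was possible because each group is 1 sample.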
